A study of Mus musculus with 6 samples.

Results

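The solute carriers described here are the mouse genes whose symbol is Slc followed by a digit and whose normalized count averaged at least 10 over the 6 libraries of sorted thymic tuft cells. Of the 379 genes with such a symbol, 284 met that rule, 93 averaged less than 10, and Slc5a7 and Slc18a3, the transporters of choline and of vesicular acetylcholine, were left out by name. The table holds 55471 genes in all, of which 19416 reached the same mean and were tested. Members were thus selected on their mean level, a measured value, and not on the difference between genotypes. A gene could enter through the group where it was higher: 236 members averaged at least 10 in both genotypes, 38 in the Het libraries alone and 10 in the Ko libraries alone. Just inside the limit stood Slc27a5, Slc15a1 and Slc39a7 with means of 10.8, 10.8 and 11, and just outside it stood Slc2a3 at 9.71, Slc51a at 9.21 and Slc10a5 at 9.06.

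The cells were L1CAM+ tuft cells of the thymus, chemosensory epithelial cells, sorted from mice in which every animal carried floxed Ikzf1 alleles (Ikzf1 fl/fl). One genotype lacked Foxn1-Cre and is given as WT in the labels, and the other carried it and is given as KO, with 3 samples each. Foxn1-Cre acts in thymic epithelium at large, so a deletion would not be limited to tuft cells, and Ikzf1 encodes the zinc finger factor Ikaros. The expression table has columns Het1, Het2 and Het3, and Ko1, Ko2 and Ko3. Ko was read as the genotype given as KO and Het, by elimination, as the genotype given as WT, and no column could be tied to a particular sample. Whether each sample came from its own mouse, and at what age, is not given in the sources used here. Thus p-values measure only how far these samples spread, and that spread may be technical.

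Solute carriers are membrane proteins that move small molecules along their gradients or against them by coupling to another ion, and each numbered family tends to carry related cargo. Families at the cell surface take up sugars, amino acids, ions and metals, while others serve mitochondria, the Golgi apparatus or synaptic vesicles. Tuft cells are best known for a taste-like signalling cascade that ends in sodium entry through Trpm5, and for making acetylcholine, which depends on transporters of choline.

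Promoters of 4 members are shown because their transcripts differed in opposite directions between the genotypes and the factor manipulated binds a short motif. Each runs 5′ to 3′ on the gene's strand, from 250 bases before to 50 bases after the annotated start, in RefSeq's annotation of GRCm38.p6, which is not the authors' build. Capitals mark TGGGAA, the core of the Ikaros motif, or the same letters on the opposite strand, TTCCCA. Slc1a4 (chr11:20332664-20332963, minus strand) and Slc25a30 (chr14:75786988-75787287, minus strand) read higher in every Ko library than in any Het library and each hold 1 match. Slc46a3 (chr5:147894766-147895065, minus strand) and Slc6a4 (chr11:76998347-76998646, plus strand) read lower and hold 0.
Slc1a4: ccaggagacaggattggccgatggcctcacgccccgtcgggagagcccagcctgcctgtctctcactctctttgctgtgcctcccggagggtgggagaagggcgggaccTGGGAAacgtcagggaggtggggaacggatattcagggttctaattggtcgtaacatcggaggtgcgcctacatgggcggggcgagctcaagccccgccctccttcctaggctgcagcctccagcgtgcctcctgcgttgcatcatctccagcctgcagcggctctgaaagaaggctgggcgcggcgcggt
Slc25a30: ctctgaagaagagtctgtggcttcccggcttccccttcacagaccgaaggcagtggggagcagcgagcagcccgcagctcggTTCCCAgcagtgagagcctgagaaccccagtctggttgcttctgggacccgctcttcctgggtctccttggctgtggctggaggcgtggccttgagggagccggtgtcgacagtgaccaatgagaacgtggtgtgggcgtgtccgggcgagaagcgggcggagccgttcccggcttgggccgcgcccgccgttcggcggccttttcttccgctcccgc
Slc46a3: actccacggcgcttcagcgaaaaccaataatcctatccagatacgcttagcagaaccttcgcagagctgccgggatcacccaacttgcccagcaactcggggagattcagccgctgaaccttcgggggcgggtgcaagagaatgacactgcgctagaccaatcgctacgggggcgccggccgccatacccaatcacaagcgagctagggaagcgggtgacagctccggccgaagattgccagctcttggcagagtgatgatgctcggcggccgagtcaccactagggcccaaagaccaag
Slc6a4: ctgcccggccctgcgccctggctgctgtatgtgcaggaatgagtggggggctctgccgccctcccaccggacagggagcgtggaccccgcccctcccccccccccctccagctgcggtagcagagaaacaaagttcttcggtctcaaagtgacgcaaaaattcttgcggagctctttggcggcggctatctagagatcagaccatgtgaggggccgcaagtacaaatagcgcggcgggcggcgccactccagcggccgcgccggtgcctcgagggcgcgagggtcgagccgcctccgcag

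These windows were picked for display, the first pair because they hold the letters. Over all 32851 promoter windows in the RefSeq table, 25.6% held TGGGAA on either strand, against 22% of the 277 windows of the 215 members that have one. Among the 12 members with the largest higher values in Ko libraries (described below by role), 9 had windows, and 5 of their 17 windows held the letters. Of the 12 with the largest lower values, 7 had windows, and 0 of their 8 windows held them. The octamer ATGCAAAT, bound by POU factors such as the tuft cell factor Pou2f3, was in 1.74% of all windows and 0.722% of member windows, and in none of the windows of either of those sets. A match of letters is a description of the window and shows no binding.

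The libraries held 12238400 to 31435800 reads, recovered from the normalized values. Ikzf1 itself stood at 301, 187 and 273 normalized counts in the Het libraries, in the order of their numbers, and at 1572, 1463 and 1717 in the Ko libraries, so its transcript was higher in the libraries labelled Ko (limma, Benjamini-Hochberg adjusted p = 0.0105). The direction goes against that label, a whole-gene count cannot show which exons were read, and every comparison below is therefore between libraries labelled Ko and Het. L1cam, the sorting marker, read 3053, 2787 and 2395 against 3809, 2924 and 4277 (adjusted p = 0.408 in limma). All 16 tuft identity genes, Pou2f3, Trpm5, Dclk1, Gnat3 and Chat among them, were detected in every library, and none was called. Fold changes were positive for 14 and negative for 2, with a median of 0.29. Gng13 read lower in every Ko library, at 27998, 29638 and 25381 against 14323, 17695 and 19502, just short of a call (limma adjusted p = 0.0504). The summed count of the 16 overlapped, at 135268 to 197206 in Het and 175667 to 201910.0 in Ko libraries. Slc5a7 read 31.3, 0 and 28.9 in Het and 2.06, 1.04 and 0 in Ko libraries, and Slc18a3 read 64.3, 0 and 1.44 against 2.06, 21.8 and 80.2.

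Markers of other cells moved with the labels too. Secretory and goblet-like markers, all 10 detected in every library, summed to 141298 to 218927 in Het and 16526 to 107442 in Ko libraries. Without Reg3g the sums overlapped at 25544 to 62412 and 13715 to 81541, the last being mostly Bpifa1, at 74210 in Ko2. Fold changes were negative for 9 of 10 of these genes, with a median of -2.58. Microfold markers, 8 of 8 detected, summed to 36917 to 52522 and 21866 to 24233, and without Gp2 they overlapped at 22359 to 36183 and 21515 to 23537. Macrophage and dendritic cell markers, of which 5 of 10 were abundant enough to test, summed to 53657, 4182 and 9078 in Het and 623, 3018 and 1179 in Ko libraries. Most of that was Lyz2, and without it the sums were 349 to 516 and 48.7 to 127. Neuroendocrine markers, 7 of 9 tested, summed to 763 to 2987 and 48.7 to 745, and without Sst to 734 to 1533 and 48.7 to 683. Fold changes were negative for 6 of 7 tested neuroendocrine genes, 5 of 8 microfold genes and 5 of 5 macrophage and dendritic cell genes. The B cell sum was higher in Ko libraries, at 5080 to 6575 against 2535 to 3720, through Cd79b: without it the other markers overlapped at 416 to 1067 in Ko and 498 to 681 in Het. Its 6 tested members had 3 positive and 3 negative fold changes. The thymocyte sum was likewise higher, at 636 to 1276 against 183 to 530, through Themis, and without it the sums overlapped at 202 to 368 in Ko and 124 to 450.2 in Het. Sums without a marker were added after the values were seen. The sums of the remaining lists overlapped between the labels. Fold changes were negative for 10 of 10 tested Aire-stage medullary genes (median -1.54) and 7 of 8 ciliated genes (-2.55). They were negative for 7 of 9 keratinocyte-like genes (-1.70) and 7 of 9 acinar, gut and liver genes (-1.33). Elsewhere they were negative for 5 of 7 cortical, 4 of 5 erythroid, 3 of 5 ionocyte and 5 of 10 fibroblast and endothelial genes. Among markers at 0 in all 3 Ko libraries, Sprr2e read 218, 57.5 and 651 in Het libraries and Prss2 read 16.2, 504 and 1.44. The others were also at 0 in Het libraries: Hbb-bt read 0, 22 and 278, Ascl3 read 0, 27.7 and 0, and Ptf1a read 0, 11.4 and 0. The genes called in these lists were Cd79b, higher in Ko, and Ctsz, Reg3g, Fcgbp, Muc13, Gp2, Pglyrp1, Sntn, Krt6b, Sprr2e and Gip, lower. The part of these cells in the transporter values was not tested, and in bulk RNA fewer cells of a type and less RNA per cell cannot be told apart.

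**Figure D1:**
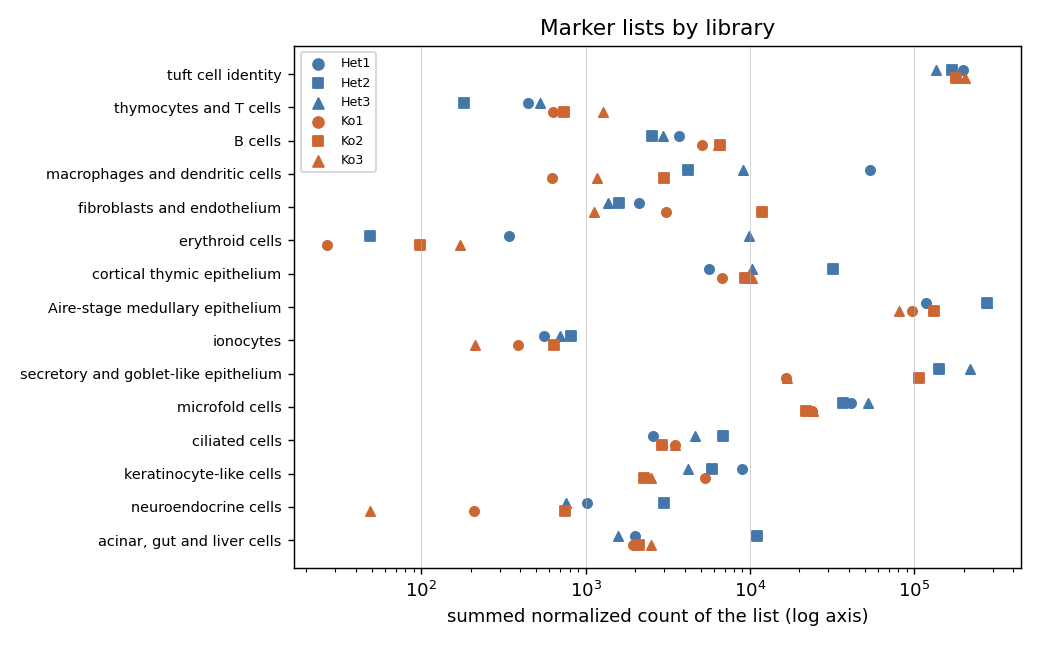
Summed normalized count of each marker list (horizontal, log axis) in each of the 6 libraries, Het in blue and Ko in orange, with a symbol for each replicate number. The tuft identity sums overlap, and the secretory sums run from 141298 to 218927 in Het and from 16526 to 107442 in Ko libraries.

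Taken as a family, the solute carriers took a like share of reads in every library, and only Slc5a9, a sodium-coupled sugar transporter, passed limma's test. The 284 members took 0.748% to 0.805% of reads in Het and 0.761% to 0.772% in Ko libraries. Limma called 1 member, 0.352% of them, where it called 0.814% of all genes tested: 0 members were higher in Ko, against 0.288% of all genes, and 1 was lower, against 0.525%. On the log2(value + 1) scale 117 members had fold changes above 0 and 167 below it, that is 58.8% negative beside 52.8% of all genes tested. The median member differed by -0.23 and the median gene by -0.05. By level, the median was -0.97 for the 68 members averaging 10 to 50 (all genes there, -0.35), -0.76 for the 77 averaging 50 to 200 (all genes, -0.18), -0.07 for the 108 averaging 200 to 1000 (all genes, -0.01) and 0.09 for the 31 above that (all genes, 0.05). Negative fold changes numbered 50 of the 68, 51 of the 77, 59 of the 108 and 7 of the 31 in these ranges.

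At an unadjusted p under 0.05, limma marked 16 members as higher (5.63%, beside 5.62% of all genes) and 40 as lower (14.1%, beside 7.99%). Of the members, 23 read higher in every Ko library than in any Het library (8.1%, beside 8.57% of all genes), and 38 read lower in every Ko library (13.4%, beside 9.86%). DESeq2 on the recovered reads called 5 members higher (1.76%, beside 1.87% of all genes tested) and 15 lower (5.28%, beside 3.74%). In the authors' deposited table, 10 members had an adjusted p under 0.05 and a higher value (3.52%, beside 3.06%) and 20 a lower one (7.04%, beside 5.23%), with no value given for 11 members. EdgeR called 0 higher (0.124% of all genes) and 1 lower (0.263%), and voom called 0 in either direction (0.103% of all genes each way).

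**Figure D2:**
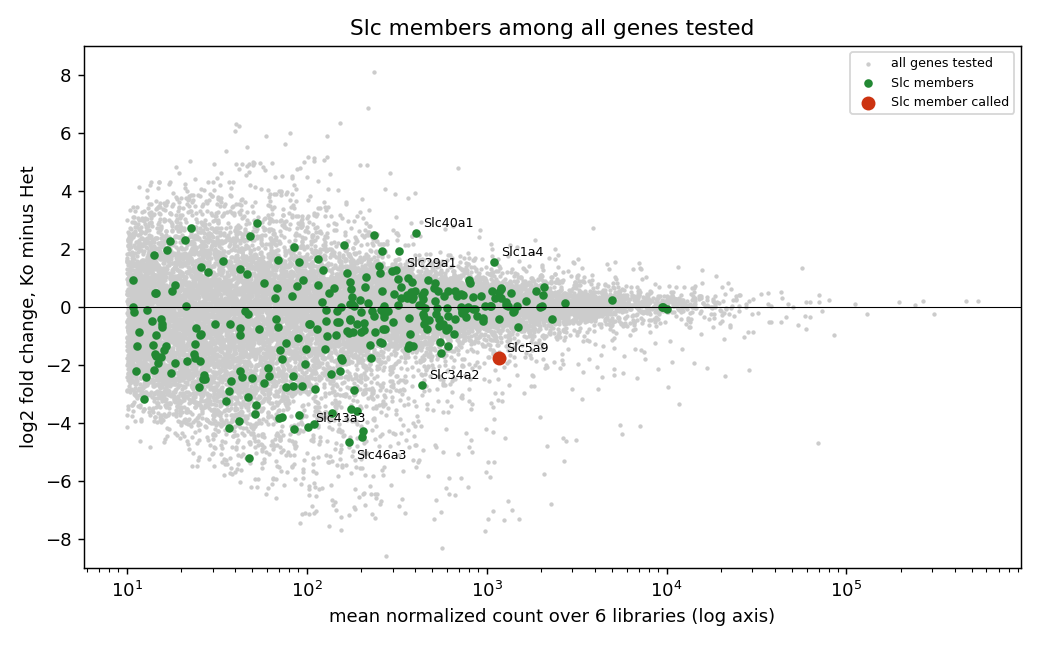
Log2 fold change, Ko minus Het, of each gene tested (vertical) against its mean normalized count over 6 libraries (horizontal, log axis), with all genes in grey, the 284 Slc members in green and the member called by limma in red. The 31 members above a mean of 1000 have a median of 0.09, with Slc5a9 at -1.74 and Slc1a4 at 1.57 standing out, and the widest fold changes in both directions are among members of lower mean.

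Sugar transporters held the called gene and the lowest median of the 9 cargo classes. The median sugar transporter averaged 97.7 normalized counts, in the range of 50 to 200 where members had a median fold change of -0.76. The part of expression level in the class medians was not tested. Slc5a9 encodes SGLT4, a sodium-coupled transporter of mannose, glucose and fructose. It read 2114, 1717 and 1587 normalized counts for Het1, Het2 and Het3, while Ko1, Ko2 and Ko3 gave 597, 428 and 606. Its groups stood far apart, with the lowest Het library well above the highest Ko library, and it had the highest mean count of the Slc5 family. Slc5a9 fell 3.32-fold, from 1806 ± 274 to 543 ± 100.3 (mean ± SD, n = 3 each), a log2 fold change of -1.74 ± 0.26 (SE, limma adjusted p = 0.0237). EdgeR called it as well, DESeq2 gave an adjusted p of 3.67e-07, and voom missed the threshold at 0.0572. Leaving out a library ended limma's call in 5 of 6 cases, with adjusted p of 0.0615 without Het1, 0.107 without Het2, 0.134 without Het3, 0.0593 without Ko2 and 0.0571 without Ko3. The authors' deposited table gives a log2 fold change of -1.73 and an adjusted p of 4e-09 for it.

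Of the 19 sugar transporters, 4 had positive and 15 negative fold changes, with a median of -1.61, and the median stayed between -1.80 and -0.95 when each library was left out, the highest without Ko3. Slc2a1, the common glucose transporter GLUT1 and the highest of its family in mean count, read 1536, 1036 and 1449 in Het and 818, 1214 and 1024 in Ko libraries, which overlapped (adjusted p = 0.569 in limma). Slc2a10, the facilitative transporter GLUT10, went the other way, with 211, 78.1 and 139 against 442, 402 and 241 (2.54-fold higher in Ko, adjusted p = 0.283). Its lowest Ko library lay just above its highest Het library. The Slc5 family, Slc5a9 included, summed to 2939, 2723 and 2713 in Het and 1533, 1111 and 908 in Ko libraries. Slc5a9 held most of the sum in each Het library, and the sums of the other members overlapped between the labels. In this family 5 of 7 members had negative fold changes, the lowest at -4.16. The 8 GLUT members had 7 negative fold changes and a median of -1.55, which was -0.92 without Ko1 and -1.87 without Ko2. They summed to 2265, 1512 and 2032 in Het and 1376, 1809 and 1382 in Ko libraries, which overlapped.

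Carriers of inorganic ions and acid-base equivalents, 46 in number, had 31 negative fold changes and a median of -0.59. Without overlap, 2 of them read higher in Ko libraries (8.57% of all genes tested) and 9 lower (9.86% of all genes). Slc34a2, the sodium-phosphate cotransporter NaPi-IIb of absorptive and lung epithelium, read 1442, 308 and 561 in Het and 128, 99.5 and 73.1 in Ko libraries. The fold was 7.7, the log2 fold change -2.68 ± 0.59 and the adjusted p 0.0785 in limma, against 3.06e-05 in DESeq2. Het1 was the highest library by a wide margin, and the Ko libraries lay close together. Slc4a9, the anion exchanger AE4, read 119.7, 114 and 244 against 6.17, 2.07 and 22.9 (adjusted p = 0.119). Slc9a4, the sodium-proton exchanger NHE4, read 571, 126 and 407 against 16.5, 1.04 and 112 (adjusted p = 0.188), so that its highest Ko library nearly met its lowest Het library. Ionocyte markers, which mark another cell that handles ions, summed to 560.4, 819 and 703 in Het and 388, 646 and 211 in Ko libraries, which overlapped. Of its 5 tested members 2 had positive and 3 negative fold changes, and the part of such cells was not tested.

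The ion carriers of high mean count overlapped or lay close. Slc12a2, the sodium-potassium-chloride cotransporter NKCC1, read 5207, 1064 and 2311 in Het and 2745, 3029 and 2041 in Ko libraries, and the 3 Ko values lay inside the Het range. Its mean was lower in Ko while its log2 fold change was positive at 0.14, with Het1 the highest and Het2 the lowest of the 6 libraries. Slc4a7, the sodium-bicarbonate cotransporter NBCn1, read 1386, 1316 and 1834 against 1913, 3004 and 1858, higher in every Ko library but by little in Ko3 (1.49-fold, adjusted p = 0.368). Slc26a2, the sulfate transporter, had the highest mean count of the Slc26 family and overlapped, at 666, 351 and 515 against 661, 500.4 and 804. The 9 members of the bicarbonate transporter family Slc4, whatever their own cargo, had 6 negative fold changes and a median of -1.72. That median was -0.75 without Het2 and -2.10 without Het3, although Slc4a7, their member of highest mean count, was on the other side.

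Transition metal carriers split evenly, 12 positive and 12 negative, and held some of the widest differences in both directions. Slc40a1 encodes ferroportin, the iron exporter, and read 206, 41.2 and 139 in Het and 826, 859 and 349.5 in Ko libraries. Every Ko library exceeded every Het library, with a 5.27-fold higher mean and a log2 fold change of 2.56 ± 0.64 (limma adjusted p = 0.112, DESeq2 0.00282). Slc39a14, the importer ZIP14 of zinc, iron and manganese, read 209, 119 and 221 against 352, 374 and 612 (2.44-fold, adjusted p = 0.244). The zinc importers of the same Slc39 family included the largest lower values of the class. Slc39a4, the dietary zinc importer ZIP4, read 235, 592 and 290.0 in Het and 7.2, 84.9 and 4.3 in Ko libraries (11.6-fold, log2 fold change -4.47 ± 1.08, adjusted p = 0.102). Ko2 held most of its Ko count, and without Ko2 limma called it lower, at -5.71 and an adjusted p of 0.042.

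Slc39a2, the zinc importer ZIP2, read 548, 221 and 175 in Het and 93.6, 21.8 and 5.73 in Ko libraries (7.79-fold, adjusted p = 0.157). Slc39a8, the zinc and manganese importer ZIP8, read 8.39, 60.3 and 229 against 1.03, 7.25 and 2.86 (adjusted p = 0.318), with Het1 barely above Ko2. The importer of highest mean count, Slc39a9 or ZIP9, also read lower in every Ko library, at 612, 908 and 736 against 360.1, 377 and 596 (1.69-fold, adjusted p = 0.341). Over the 13 Slc39 members, 6 fold changes were positive and 7 negative, with 2 reading higher and 4 lower without overlap, beside 8.57% and 9.86% of all genes tested. The zinc transporters of Slc30, many of which export zinc from the cytosol, stayed closer to 0: their 6 fold changes ran from -0.43 to 0.41. Slc30a9, their highest in mean count, read 1019.5, 1323 and 1479 against 1722, 929 and 1395. Sums of keratinocyte-like markers, a list of other epithelium, overlapped at 8905, 5843 and 4181 in Het and 5319, 2263 and 2491 in Ko libraries. Sums of acinar, gut and liver markers overlapped too, at 1997, 10988 and 1573 against 1938, 2122 and 2511. In each list 7 of 9 tested genes had negative fold changes, with medians of -1.70 and -1.33. Krt6b and Sprr2e of the first list were called lower, and the part of such cells was not tested.

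**Figure D3:**
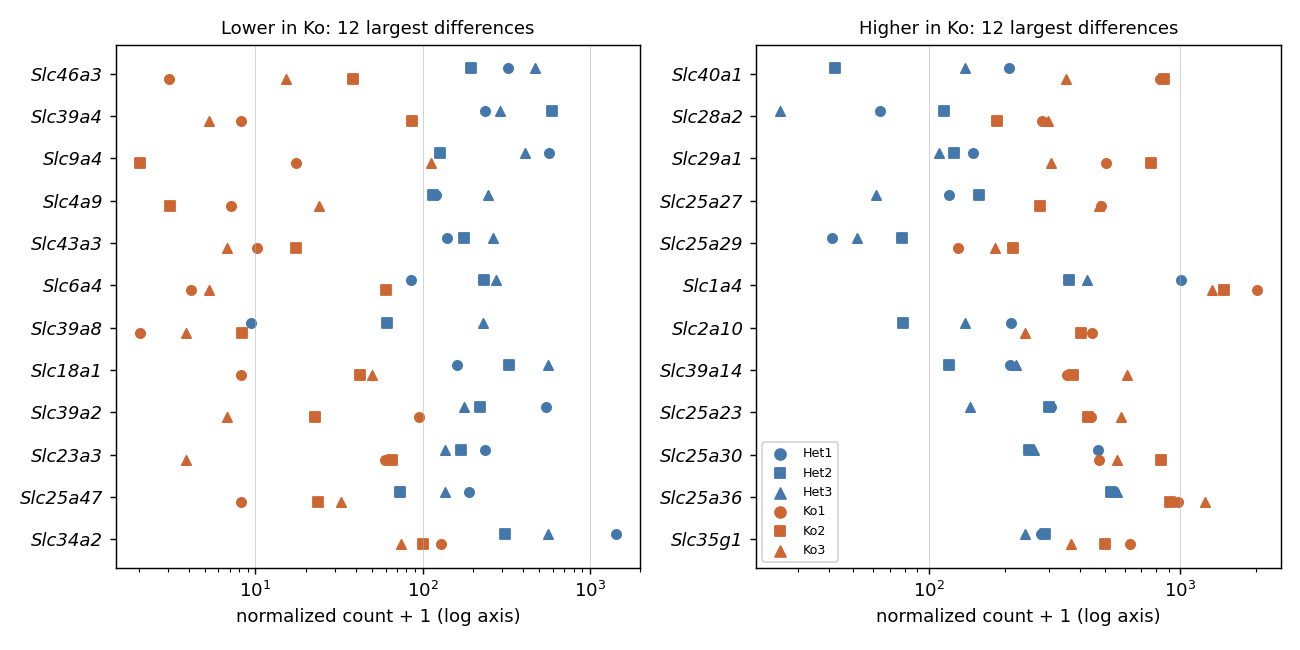
Normalized count plus 1 (horizontal, log axis) in each library for the 12 Slc members with the largest lower (left) and the 12 with the largest higher (right) log2 fold changes among members that averaged at least 50 and did not overlap; Het is blue, Ko is orange, and symbols give the replicate number. The lower genes spread further among Ko libraries, and Ko2 was the highest Ko library in 6 of the 12.

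Mitochondrial carriers formed the largest family, 42 members, with 22 positive and 20 negative fold changes and a median of 0.01. The carriers that supply the ATP synthase overlapped between the labels. Slc25a3, the phosphate carrier, read 9451, 10741 and 8331 in Het and 10136, 8641 and 9713 in Ko libraries, a log2 fold change of 0.00 ± 0.14. Slc25a5, an ADP/ATP translocase, read 7195, 11688 and 9117 against 6949, 10256 and 11220.0, and its paralog Slc25a4 read 3713, 5922 and 4112 against 5571, 5676 and 4874. All 3 overlapped, with adjusted p of 0.62 or more. Slc25a11, the oxoglutarate carrier, spread least, at 1937, 1984 and 1998 against 1883, 2000.4 and 2124. Slc25a17, a family member that serves peroxisomes, read 2194, 2687 and 3024 against 2388, 1785 and 1755 (adjusted p = 0.436).

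Of the 42, 7 read higher in every Ko library and 6 lower, where 8.57% and 9.86% of all genes tested did so. Slc25a27, the brain uncoupling protein relative UCP4, read 119, 158 and 60.6 in Het and 482, 275 and 473 in Ko libraries (3.65-fold, log2 fold change 1.92 ± 0.53, limma adjusted p = 0.145, DESeq2 0.0216). Slc25a36, a carrier of pyrimidine nucleotides, had tight Het values of 543, 530.4 and 557 against 982, 905 and 1250.5 (1.92-fold, adjusted p = 0.155). Neither passed limma, and both were called by DESeq2. Slc25a29, a carrier of basic amino acids, read 40.3, 77.4 and 50.5 against 129.6, 215 and 182 (3.13-fold, adjusted p = 0.303). Slc25a23, a calcium-sensitive carrier of ATP-Mg and phosphate, read 304, 298 and 144 against 439, 428 and 579, and Slc25a30 read 469.8, 248 and 261 against 474, 835 and 557 (adjusted p = 0.33 and 0.329). For Slc25a30 the lowest Ko library exceeded the highest Het library by only a few counts. On the lower side Slc25a47 read 189, 72.4 and 136 against 7.2, 22.8 and 31.5 (6.46-fold, adjusted p = 0.237).

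Transporters of nucleosides, vitamins and choline numbered 23, with 10 positive and 13 negative fold changes and a median of -0.18. A nucleoside transporter of each of 2 families stood on the higher side. Slc29a1, the equilibrative nucleoside transporter ENT1, read 149, 125 and 108 in Het and 505, 766 and 304 in Ko libraries (4.12-fold, log2 fold change 1.95 ± 0.47, limma adjusted p = 0.105, DESeq2 0.00236). Slc28a2, the concentrative purine nucleoside transporter CNT2, read 62.6, 114 and 24.5 against 281, 185 and 295 (3.79-fold, adjusted p = 0.213). Each Ko library exceeded each Het library for both genes. Slc28a3, a relative of Slc28a2 named after its values were seen because DESeq2 called it at an adjusted p of 0.0466, went the other way with a log2 fold change of -3.66.

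Slc46a3, a lysosomal member of the folate transporter family, read 321, 193 and 467 in Het and 2.06, 37.3 and 14.3 in Ko libraries. Its mean was 18.3-fold lower in Ko, the log2 fold change -4.66 ± 1.03 and the limma adjusted p 0.0793, against 0.000101 in DESeq2. On limma's log2(value + 1) scale no other member averaging at least 50 had a lower value, although the ratio of means was larger for Slc39a8, at 26.8. Slc23a3, a relative of the ascorbate transporters, read 235, 169.7 and 134 against 58.6, 64.2 and 2.86 (adjusted p = 0.306). Choline transporter-like Slc44a2, the highest of this class in mean count, read 2003, 1496 and 1199 against 1693, 1829 and 1762 and overlapped, the Ko values lying closer together than the Het values.

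Amino acid and peptide transporters centred near 0 as a class, with 17 positive and 19 negative fold changes among 36 and a median of -0.09. Slc38a2, the system A neutral amino acid transporter SNAT2, had the highest mean of all members and read 10416, 9233 and 11429 in Het and 10462, 9535 and 9589 in Ko libraries. Slc3a2, the heavy chain CD98 that brings several light chains to the surface, read 1490.4, 1874 and 1939 against 2258, 2397 and 2402. Every Ko library exceeded every Het library for it, by 1.33-fold in the means (limma adjusted p = 0.38). Slc1a4, the neutral amino acid exchanger ASCT1 whose promoter is shown above, read 1004, 359 and 423 against 2009, 1483 and 1334 (2.7-fold, log2 fold change 1.57 ± 0.39, adjusted p = 0.111). Het1 stood above the other Het libraries, and without Het1 limma called Slc1a4 higher. Slc1a3, the glutamate transporter GLAST, overlapped at 858, 1142 and 669 against 723, 2057 and 1791.

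The largest lower value of the class was Slc43a3, which in spite of its amino acid family carries purine nucleobases. It read 139, 176 and 263 in Het and 9.26, 16.6 and 5.73 in Ko libraries, an 18.3-fold lower mean with a log2 fold change of -4.13 ± 0.90. The limma adjusted p was 0.0742 and the DESeq2 adjusted p 6.77e-05, and the authors' deposited table gives 1.55e-09. The lowest Het library lay well above the highest Ko library. Slc36a4, the highest in mean count of the proton-coupled amino acid transporters, overlapped at 168, 207 and 302 against 327, 32.1 and 169.

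Transmitter and vesicular transporters, taken as all 21 members of Slc6, Slc17 and Slc18 whatever their own cargo, had 6 positive and 15 negative fold changes. The median was -1.23, and the median member averaged 52.2 normalized counts. Slc6a6, the taurine transporter, had their highest mean count and lay on the higher side, with 1612, 1792 and 1353 in Het and 2691, 2922 and 2113 in Ko libraries (1.62-fold, log2 fold change 0.70 ± 0.21, limma adjusted p = 0.179). The authors' deposited table gives it an adjusted p of 0.0373. Leaving out a library gave medians of -1.58 to -0.70, the latter without Het3. Slc18a1, the vesicular monoamine transporter VMAT1 of neuroendocrine cells, read 161, 327 and 564 against 7.2, 41.4 and 48.7 (10.8-fold, log2 fold change -3.59 ± 0.89, limma adjusted p = 0.11, DESeq2 0.000738). Slc6a4, the serotonin transporter, read 83.9, 231 and 276 against 3.09, 59 and 4.3, with most of the Ko count in Ko2 (8.9-fold, adjusted p = 0.172). Neuroendocrine markers summed to 1014, 2987 and 763 in Het and 209.9, 745 and 48.7 in Ko libraries, so they were highest in Het2 and Ko2. Slc6a4 was highest in Het3 and Ko2, and Slc18a1 in Het3 and Ko3. The part of neuroendocrine cells in these values was not tested. Slc17a5, the lysosomal sialic acid exporter, read 133, 143 and 143 against 54.5, 279 and 178, a fold change of 0.00 with a much wider Ko spread.

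Carriers of organic acids, organic cations, bile acids and fatty acids, 35 members, had 12 positive and 23 negative fold changes and a median of -0.49. All 9 members of the monocarboxylate transporter family Slc16, whatever their own cargo, had negative fold changes, with a median of -1.46. That median was -0.73 without Ko1, -0.77 without Ko3 and -1.80 without Ko2. Limma called none of the 9, with adjusted p from 0.353 to 0.851, and all overlapped between the labels. The authors' deposited table calls Slc16a10, at a log2 fold change of -3.81 and an adjusted p of 0.0278; it was named after its values were seen. Slc16a11, their highest in mean count, read 966, 569 and 763 in Het and 652, 338 and 68.8 in Ko libraries, so that Ko3 alone stood far below the rest. The partner protein Bsg, the chaperone that carries monocarboxylate transporters to the surface, overlapped at 8649, 7623 and 8142 against 7429, 7339.7 and 8459.8. Of the other partners listed, Emb read lower in every Ko library, at 2319, 2666 and 2803 against 1573, 2051 and 1995 (limma adjusted p = 0.327). Nptn overlapped, at 1936, 1769 and 2082 against 1866, 2217 and 2723. Emb and Nptn were named after their values were seen. By contrast the 6 fatty acid transport proteins of Slc27 had a median of 0.54, which was 0.24 without Het3, 0.32 without Ko1 or Ko3 and 0.79 without Het1, and Slc27a1, or FATP1, read 1073, 950.0 and 1163 against 1313, 1050.4 and 1656. Slc22a21, a mouse carnitine transporter, read 1284, 870.4 and 527 against 1372, 1335 and 1006, and Slc10a3 of the bile acid transporter family read 204, 206 and 49.1 against 228, 205 and 163.

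Nucleotide sugar, sugar phosphate and acetyl-CoA transporters, which feed the Golgi apparatus and endoplasmic reticulum, varied least. Their 29 fold changes, 17 positive and 12 negative, ran from -0.89 to 1.78 with a median of 0.08, and 2 read higher and 0 lower in every Ko library (8.57% and 9.86% of all genes tested). Slc35b1, the highest in mean count, read 1102, 969 and 1687 in Het and 1172, 1566 and 1176 in Ko libraries (adjusted p = 0.927). The family member furthest from 0 among those averaging at least 50 without overlap was Slc35g1, at 279, 289 and 241 against 628, 502 and 365 (1.85-fold, adjusted p = 0.345).

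**Figure D4:**
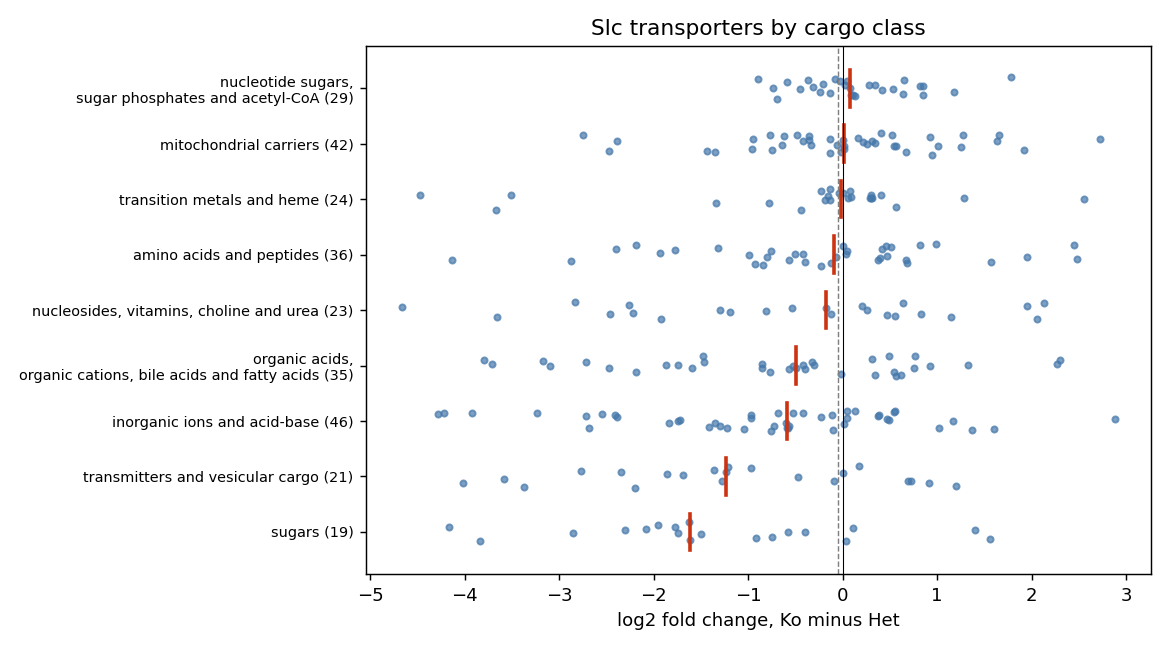
Log2 fold change, Ko minus Het (horizontal), of each of the 275 members that name a transporter, by cargo class, with the median of each class as a red bar, all genes tested as a dashed line at -0.05 and the number of members in brackets. Sugar and transmitter transporters have medians of -1.61 and -1.23, and mitochondrial carriers of 0.01. The median member of these classes averaged 97.7, 52.2 and 414 normalized counts, in that order.

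Per kilobase of exon the order of abundance differed from that of the counts. Slc25a5 came first with 5713 normalized counts per kb, followed by Slc25a4 with 2116, Slc25a3 with 1712, Slc38a2 with 1144, Slc9a3r1 with 1059 and Slc25a11 with 938. Slc25a5 was above Slc25a4 per kb in all 6 libraries, while the ranges of Slc25a4 and Slc25a3 overlapped, as did those of Slc38a2 and Slc9a3r1. Slc12a2, also among the 12 of highest mean count, came to 250.3 per kb. Exon lengths came from a GRCm38 annotation, and reads of Slc25a4 and Slc25a5 could be split between close paralogs.

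**Figure D5:**
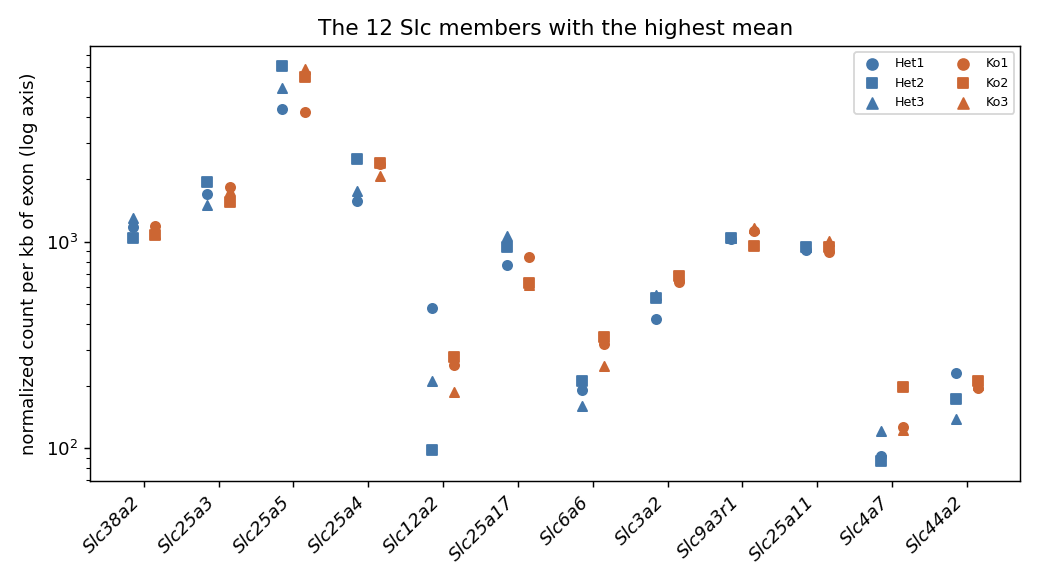
Normalized count per kb of exon (vertical, log axis) in each library for the 12 Slc members with the highest mean count, in order of that mean, Het in blue and Ko in orange. Het and Ko points overlap for Slc38a2, Slc25a3, Slc25a5, Slc25a4, Slc12a2, Slc25a17, Slc9a3r1, Slc25a11 and Slc44a2, and every Ko point lies above the Het points for Slc6a6, Slc3a2 and Slc4a7.

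Symbols that fit the pattern but name no transporter made up 9 of the 284. Slc9a3r1, the scaffold NHERF1 that anchors transporters under the membrane, had the highest mean count of these and overlapped, at 1978, 2000.0 and 2009.9 in Het and 2166, 1833 and 2242 in Ko libraries. Its relative Slc9a3r2, or NHERF2, ranged from 7.83 to 114 and from 1.43 to 199. Slc36a3os, an opposite-strand transcript, had the lowest fold change of all members: 159, 34.8 and 86.6 against 4.12, 1.04 and 0, a log2 fold change of -5.19 ± 1.33 (limma adjusted p = 0.116, DESeq2 0.00285). Slc13a2os read 21.8, 83.8 and 188 against 38.1, 15.5 and 1.43 and shares exon sequence with Slc13a2; strandedness of the counting is not given in the sources used here, so reads of the pair cannot be told apart. Slc7a6os read 1145, 1081 and 658 against 1569, 1414 and 1388, and Slc4a1ap read 394, 149.8 and 139 against 44.2, 159.5 and 198. The pseudogenes Slc2a4rg-ps, Slc22a13b-ps and Slc25a5-ps averaged 128, 15.6 and 24.3, and counts of Slc25a5-ps are uncertain because its parent gene Slc25a5 has a high count. Exons of 75 members overlap another gene in the GRCm38 annotation, among those named above Slc10a3, Slc25a11, Slc25a23, Slc25a47, Slc29a1, Slc2a1, Slc39a2, Slc39a7, Slc39a9, Slc4a1ap, Slc6a6 and Slc9a4.

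Solute carriers listed under other names centred near 0. Of 33 such genes, 30 were tested, 16 with positive and 14 with negative fold changes, a median of 0.02 and 0 called. Mpc2, a subunit of the mitochondrial pyruvate carrier, had the highest mean count, at 4266, 5022 and 5467 in Het and 4935, 5907 and 5187 in Ko libraries. Of 19 partners and regulators, 17 were tested, 7 positive and 10 negative, with a median of -0.07 and 0 called.

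Replicates of a label varied widely for these genes. The median coefficient of variation of a member was 45.5% in Het and 44.3% in Ko libraries, beside 44.2% and 44% for all genes tested. A read was present in all 6 libraries for 256 of the 284. Among the 12 largest lower members, Het3 was the highest Het library in 6 and Het1 in 5, and Ko2 was the highest Ko library in 6. Among the 12 largest higher members, each Ko library was the highest in 4, and Het1 was the highest Het library in 6.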

How the data were processed

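Per the labels' protocols, L1CAM+ thymic tuft cells were sorted into a SMART-seq buffer and total RNA was sequenced. STAR 2.7.9a, DESeq2 and the build GRCm39 are named in the submitters' processing notes. Strandedness, counter and annotation release were not given in the sources used here. Deposited values are a signal, that is, counts per gene after division by each library's size factor. Dividing by the value of 1 read gave whole numbers, within 0.01, for 100% of values. The authors' deposited comparison table holds log2 fold changes with standard errors, a test score, and p-values with adjusted p-values, per the file headers.

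Genes averaging at least 10 across the 6 libraries were tested with limma 3.58.1 in R 4.3.3 (lmFit, eBayes with trend, two-sided) on log2(value + 1), which understates changes of low genes, with no term besides genotype and Benjamini-Hochberg adjustment over all 19416 genes at 0.05. An exact permutation test of 3 libraries against 3 could reach no p below 0.10. The 17 alternatives were pseudocounts of 0.5 and 5, no filter, a mean of at least 50, TMM and equal-total scaling, robust eBayes, edgeR 4.0.16, DESeq2 1.42.0, voom, a block by column number and leaving out each library.

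The members and lists were chosen with earlier results of these data known. Genes named were the called members, the 12 of highest mean, the 12 largest fold changes each way among members that averaged at least 50 and did not overlap, the most abundant of each family with at least 5 members, those at the limit of 10 and symbols naming no transporter. Symbols came from a gene name table that matched 55144 of 55471 identifiers, and cargo classes from textbook knowledge of the families. Each member took the class of its whole family, so a class can hold genes that carry other cargo. Precision is limited by 3 libraries a label and by depth, since 3 reads correspond to normalized values of 1.68 to 4.33.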

Additional observations from a re-analysis of the deposited data

How the results depend on the processing

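Limma called 0 members higher and 1 lower; DESeq2 called 5 and 15, and voom called 0 lower. Leaving out a library gave 0 to 1 higher and 0 to 1 lower: Slc1a4 was called higher without Het1, Slc39a4 lower without Ko2 and Slc5a9 lower without Ko1. The median fold change of the members lay between -0.29 and -0.11 in every alternative. Whether the libraries were paired is not known. Same-numbered deviations correlated at -0.0153 to 0.025, which with 3 libraries a label cannot settle it. The labels' own sample numbers come as neighbours, a Cre-negative sample followed by a Cre-positive one, but no column could be tied to a sample. With a block by column number, 0 members were called higher and 1 lower. Among 60 named genes, 945 of 1008 values kept direction and side of the threshold, 6 lost a call, 17 gained one and 40, over 16 genes, changed sign; the cause was not tested. None of the 16 was called. Signs turned under edgeR and DESeq2 for Slc12a2 (-0.13 and -0.13), Slc39a7 (0.84 and 0.88) and Slc9a3r2 (0.35 and 0.32), under a pseudocount of 0.5 for Slc15a1 (-0.04) and Slc17a5 (-0.00), under a pseudocount of 5 for Slc39a7 (0.15), and under voom for Slc17a5 (-0.00) and Slc25a3 (-0.01). Leaving out each library gave fold changes from -0.06 to 0.97 for Slc10a3, -0.43 to 0.71 for Slc12a2, -0.09 to 0.78 for Slc15a1, -0.50 to 0.67 for Slc17a5, -2.00 to 0.47 for Slc22a13b-ps, -0.02 to 0.06 for Slc25a11, -0.09 to 0.09 for Slc25a3, -0.15 to 0.23 for Slc25a5, -0.77 to 0.34 for Slc2a4rg-ps, -0.14 to 0.30 for Slc30a9, -0.08 to 0.32 for Slc35b1, -1.55 to 0.10 for Slc36a4, -0.15 to 0.01 for Slc38a2, -0.73 to 1.10 for Slc39a7, -0.00 to 0.14 for Slc9a3r1 and -2.19 to 0.99 for Slc9a3r2. Across TMM and equal-total scaling the class medians kept their sign except that of metal carriers, which stood at -0.02 and moved to 0.00 with equal totals.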
